A study of Mus musculus with 7 samples.

Results

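The phagocyte NADPH oxidase was examined through 5 genes, Cybb, Cyba, Ncf1, Ncf4 and Rac2, of the 24421 gene symbols counted by RNA-seq in mouse LSK cells. LSK cells are the Lin-Sca1+Kit+ fraction of the bone marrow, the compartment of hematopoietic stem cells and early multipotent progenitors. The genes were chosen by name as subunits of 1 enzyme, and the set was built around Cybb with its difference between the genotypes already known. The differences of these 5 genes between the genotypes are therefore given as a description. Where the test run over all genes is quoted for them, it is no independent test.

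The study compared LSK cells with 1 or 2 functional alleles of Ddx41, a DEAD-box RNA helicase gene. Both groups of mice carried the tamoxifen-activated recombinase Rosa-CreERT2 in the transplanted marrow, and the groups differed in whether that marrow had 1 floxed Ddx41 allele (Ddx41+/-) or wild-type alleles only (Ddx41+/+). Lethally irradiated BoyJ recipients of marrow mononuclear cells received 1 mg of tamoxifen on 5 consecutive days in 2 rounds. LSK cells were sorted from the leg bones 8 weeks after transplantation. Mouse lines were kept on a C57BL background of the N substrain. The data held 4 Ddx41+/+ samples, numbered 1 to 4, and 3 Ddx41+/- samples, numbered 6 to 8, with 32234499 to 43751290 counts each. Ages of the mice are not given in the sources used here. The recombinase was not limited to one cell type within the transplanted marrow, and the labels name no gate on a donor marker for this sort, so cells of the recipient may have remained. Replicates were taken from separate mice.

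The oxidase moves electrons from NADPH across a membrane onto oxygen and so makes superoxide, which neutrophils and macrophages use against ingested microbes. Cybb (gp91phox or NOX2, the catalytic chain) and Cyba (p22phox, its stabilizing partner) form the membrane-bound cytochrome. On activation, cytosolic proteins, among them those of Ncf1 (p47phox, the organizer) and Ncf4 (p40phox, a phosphoinositide-binding adaptor), move to that cytochrome together with a Rac GTPase, which is mainly Rac2 in blood cells.

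The 5 genes lie on 4 chromosomes of GRCm38 by the GENCODE annotation. Cybb spans chrX:9435252-9487771 on the minus strand, and its longest transcript has 13 exons. Cyba lies at chr8:122424776-122432930 and Ncf1 at chr5:134220053-134229625, both on the minus strand. Ncf4 (chr15:78244801-78262580, plus strand) and Rac2 (chr15:78559167-78572783, minus strand) share chromosome 15. The promoters of Cybb, Cyba and Ncf1 are shown to set the motifs of the membrane subunits beside those of the organizer, and these 3 were the members with an entry in the promoter table used. Each is the 150 bases before the RefSeq start on GRCm38.p6, read 5′ to 3′ along the gene, with matches to the searched motifs in capitals. Promoter sequences of Ncf4 and Rac2 were not analysed here.
Cybb, chrX:9469325-9469474 (minus strand): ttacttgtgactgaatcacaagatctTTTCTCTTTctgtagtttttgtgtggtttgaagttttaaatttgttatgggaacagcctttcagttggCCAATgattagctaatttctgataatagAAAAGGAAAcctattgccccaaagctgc
Ncf1, chr5:134229626-134229775 (minus strand): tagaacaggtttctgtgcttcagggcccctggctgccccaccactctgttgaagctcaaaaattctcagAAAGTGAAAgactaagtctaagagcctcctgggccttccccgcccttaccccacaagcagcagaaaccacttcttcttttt
Cyba, chr8:122432941-122433090 (minus strand): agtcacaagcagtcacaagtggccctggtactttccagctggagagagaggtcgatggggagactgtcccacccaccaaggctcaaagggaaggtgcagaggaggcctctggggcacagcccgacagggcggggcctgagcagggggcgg

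In these windows, 5 motifs were searched on both strands. The core of the interferon response element, AAANNGAAA, was found at 2 positions in the Cybb promoter, at -28 to -20 on the gene's strand and at -124 to -116 on the opposite strand, counting back from the start. CCAAT, the box bound by NF-Y and by the repressor Cux1, was found at -56 to -52 of Cybb. The Ncf1 promoter held AAANNGAAA at -81 to -73, and the Cyba promoter held none of the 5 motifs. AAANNGAAA was present in 5.17% and CCAAT in 24.5% of 32851 promoters of the same length. The other motifs were GAGGAA (a longer form of an ETS site, the kind bound by PU.1), TTGCNNAA (a C/EBP-type site) and TATAAA. They were present in 14.5%, 5.46% and 7.57% of promoters and in none of these 3 windows. The shorter ETS core, GGAA, was not searched, and it occurs on one strand or the other in each of these windows. The matches do not overlap each other. The RefSeq start of Cybb used here lies inside the longer GENCODE span of the gene. A match is a stretch of letters and was not checked for binding.

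The targeted gene, Ddx41, was expressed at 97.9 ± 6.43 CPM (SD, n = 4) across Ddx41+/+ mice and 67.3 ± 2.63 CPM (SD, n = 3) across Ddx41+/- mice, which is 68.8% of the Ddx41+/+ level. This decrease passed edgeR's quasi-likelihood test (log2 fold change -0.54, Benjamini-Hochberg (BH) adjusted p = 0.0052), and the groups did not overlap. CPM are counts scaled to library sizes set by the trimmed mean of M values (TMM), and they compare 1 gene between samples. For comparisons between genes, CPM was divided by the length of the gene's merged exons in kilobases. All 10 LSK markers looked at were detected, with Kit at 427 to 505 CPM and Ly6a, the gene of Sca1, at only 13.3 to 30.5 CPM. These markers summed to 1700 to 1901 CPM in Ddx41+/+ and 1582 to 1730 CPM in Ddx41+/- samples. Markers of granulocyte-monocyte progenitors, led by Mpo, summed to 19670 to 23640 and 24450 to 25900 CPM. Transcripts of the committed myeloid line were thus abundant in both genotypes, and which cells they came from was not tested.

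Among the membrane subunits, Cybb differed between the genotypes and Cyba did not separate them. Cybb was measured at 60.8, 67.1, 69.8 and 65.8 CPM in Ddx41+/+ replicates 1 to 4 and at 102, 109 and 83.0 CPM in Ddx41+/- replicates 6 to 8. Every Ddx41+/- sample lay above every Ddx41+/+ sample, and replicate 8 lay closest to the Ddx41+/+ range. The means were 65.9 ± 3.78 CPM (SD, n = 4) and 98.0 ± 13.3 CPM (SD, n = 3), a 1.49-fold difference (log2 fold change 0.57, SE 0.087). The spread between Ddx41+/- mice, a coefficient of variation of 13.6%, was wider than the 5.73% between Ddx41+/+ mice. At 2209 to 4025 counts per sample, counting error would come to at most 2.13% if each count were an independent molecule. Of the 13340 genes tested, 507 had a higher fitted log2 fold change than Cybb. No 50-base stretch of the Cybb transcripts occurred in a transcript of another gene, and at most 26 stretches of any other member did. The genes next to Cybb on the X chromosome that were expressed in these cells had fitted log2 fold changes of 0.07 (Xk, SE 0.098) and 0.06 (Dynlt3, SE 0.11), and neither passed the test.

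Cyba stood at 94.0, 108, 99.7 and 111 CPM in Ddx41+/+ and at 115, 101 and 105 CPM in Ddx41+/- samples. The ranges overlapped, with only replicate 6 above all Ddx41+/+ samples. The means of Cyba were 103 ± 7.71 CPM (SD, n = 4) and 107 ± 7.11 CPM (SD, n = 3), and its log2 fold change was 0.05 (SE 0.074). Relative to its membrane partner, Cybb was thus higher in Ddx41+/- cells. The ratio of Cybb to Cyba in CPM per kilobase was 0.115 ± 0.00803 (SD, n = 4) across Ddx41+/+ mice and 0.165 ± 0.0264 (SD, n = 3) across Ddx41+/- mice, with ranges of 0.107 to 0.125 and 0.141 to 0.193.

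Ncf1 and Ncf4, the cytosolic phox subunits of the set, differed by less than Cybb, and neither was called. Ncf1 was measured at 238, 256, 273 and 258 CPM in Ddx41+/+ replicates 1 to 4 and at 279, 312 and 288 CPM in Ddx41+/- replicates 6 to 8. The groups did not overlap, but the gap between the highest Ddx41+/+ sample (replicate 3) and the lowest Ddx41+/- sample (replicate 6) was narrow. The means were 256 ± 14.3 CPM (SD, n = 4) and 293 ± 17.03 CPM (SD, n = 3), a 1.14-fold difference (log2 fold change 0.19, SE 0.064). Exons of Gtf2ird2 on the opposite strand overlap those of Ncf1, and its own counts came to between 5.08% and 7.33% of those of Ncf1. Whether reads were counted by strand is not stated, so a part of the counts of Ncf1 could belong to that neighbour.

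Ncf4 was measured at 78.4, 89.8, 81.3 and 87.5 CPM in Ddx41+/+ and at 97.8, 91.2 and 95.6 CPM in Ddx41+/- samples. These groups also did not overlap, and the lowest Ddx41+/- value (replicate 7) lay just above the highest Ddx41+/+ value (replicate 2). The means of Ncf4 were 84.2 ± 5.32 CPM (SD, n = 4) and 94.9 ± 3.34 CPM (SD, n = 3), a 1.13-fold difference (log2 fold change 0.17, SE 0.069).

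Rac2, the GTPase of the complex, was the steadiest of the genes. It was measured at 605, 620, 611 and 600 CPM in Ddx41+/+ and at 624, 607 and 591 CPM in Ddx41+/- samples. The highest and the lowest value both came from Ddx41+/- mice, so the Ddx41+/+ range lay inside the Ddx41+/- range. The means of Rac2 were 609 ± 8.69 CPM (SD, n = 4) and 607 ± 16.5 CPM (SD, n = 3). Its coefficient of variation was 1.43% between Ddx41+/+ mice and 2.72% between Ddx41+/- mice, and its log2 fold change was 0.00 with an SE of 0.054.

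**Figure D1:**
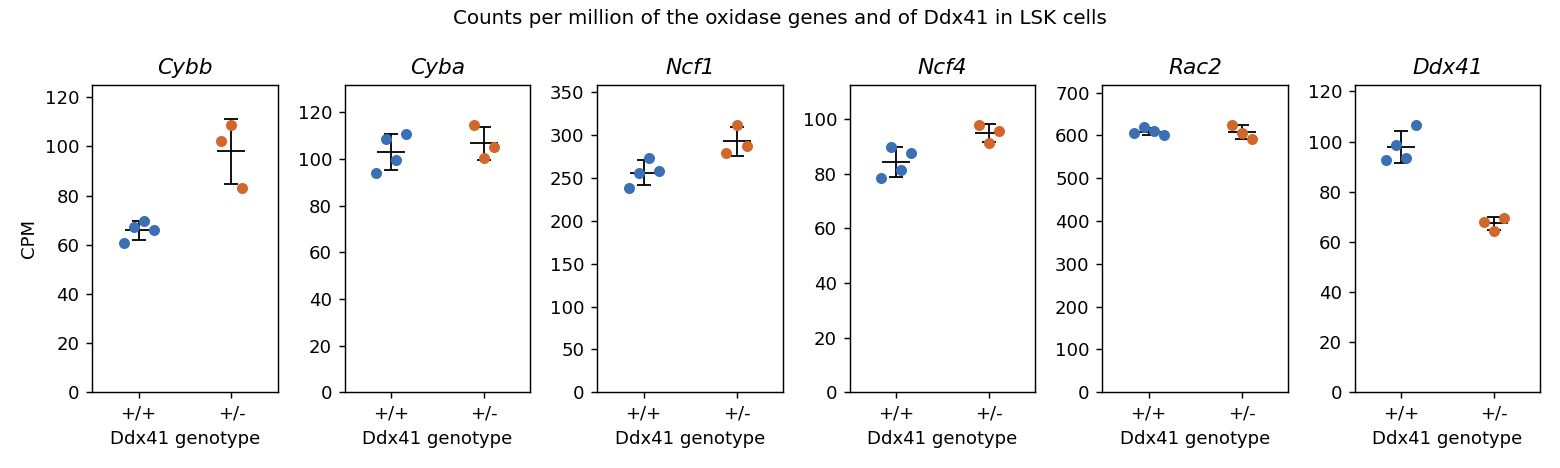
Expression in CPM (vertical axes starting at 0) of the 5 oxidase genes and of Ddx41 by genotype, with 1 point per mouse, a dash for the mean and bars for the SD (4 Ddx41+/+ samples in blue, 3 Ddx41+/- samples in orange). Cybb, Ncf1 and Ncf4 were higher in all 3 Ddx41+/- samples than in any Ddx41+/+ sample, Ddx41 was lower, and the ranges of Cyba and Rac2 overlapped.

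Of the 5 genes, 1 (Cybb) had a BH-adjusted p under 0.05 in the edgeR test over all genes, and 3 (Cybb, Ncf1 and Ncf4) did not overlap between the genotypes, all of them higher in Ddx41+/-. Among all 13340 genes tested, 0.217% were called and 10.1% did not overlap. Since the set was chosen with this contrast known, nothing is read from these counts. The median log2 fold change of the 5 genes was 0.17, and that of all genes tested was 0.00. The call of Cybb did not hold with every library left out. Without Ddx41+/+ replicate 2 or without Ddx41+/- replicate 7, 0 of the 5 genes were called. The log2 fold change of Cybb was then 0.58 and 0.49, with edgeR BH-adjusted p = 0.0506 and 0.0578, just above the threshold. Over all genes, 7 and 14 were called in these fits.

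Per kilobase of exon, the genes kept one order in all 7 samples, with Rac2 highest, followed by Cyba, Ncf1, Ncf4 and Cybb. In Ddx41+/+ cells, the levels in CPM per kilobase were 196 ± 2.80 for Rac2, 99.3 ± 7.42 for Cyba, 69.9 ± 3.91 for Ncf1, 41.7 ± 2.63 for Ncf4 and 11.3 ± 0.650 for Cybb (SD, n = 4). In Ddx41+/- cells, the levels were 196 ± 5.32, 103 ± 6.84, 79.9 ± 4.65, 47.0 ± 1.65 and 16.9 ± 2.30 CPM per kilobase in the same order (SD, n = 3). The ranges of neighbours in this order did not overlap across the 7 samples, and the order was the same with the length of the longest transcript in place of the merged exons. Rac2 ranked 176th and Cyba 400th among 12847 genes by this measure, and Cybb ranked 3920th. The mRNA of the catalytic chain was thus the least abundant of the set in these sorted cells. Its share of the summed CPM per kilobase of the 5 genes was 2.62% to 2.86% in Ddx41+/+ and 3.31% to 4.24% in Ddx41+/- samples. The share of Rac2 was 45.5% to 48.8% and 44.1% to 44.4%. In every Ddx41+/- sample the share of Cybb was higher, and that of Rac2 lower, than in any Ddx41+/+ sample. The ratio of Cybb to Ncf1 in CPM per kilobase varied little between Ddx41+/+ mice (0.162 ± 0.00237, SD, n = 4) and was 0.211 ± 0.0256 (SD, n = 3) in Ddx41+/- mice.

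**Figure D2:**
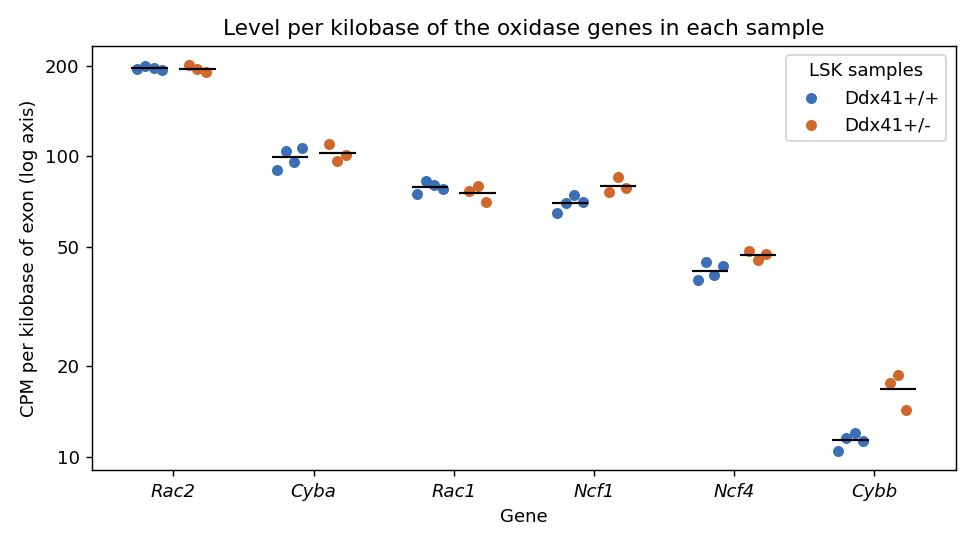
Level in CPM per kilobase of merged exons, on a log axis, of the 5 oxidase genes and of Rac1, with 1 point per mouse and a line for the mean of each genotype (Ddx41+/+ blue, Ddx41+/- orange). Rac2 lay near 196 CPM per kilobase in both genotypes, and Cybb lay lowest at 11.3 in Ddx41+/+ and 16.9 in Ddx41+/- cells.

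Rac1, the widely expressed relative of Rac2, was outside the chosen set. The lists that hold it and the genes below were also drawn up with earlier results of these data known. Their p-values come from the fit over all genes and are no independent test. It was measured at 337, 371, 361 and 350 CPM in Ddx41+/+ and at 345, 359 and 317 CPM in Ddx41+/- samples. The ranges overlapped, and its log2 fold change was -0.06 (SE 0.062, edgeR BH-adjusted p = 0.79). Per kilobase, Rac1 stood at 78.9 ± 3.24 CPM (SD, n = 4) in Ddx41+/+ cells, and its range over the 7 samples overlapped that of Ncf1. Rac2 exceeded Rac1 by 2.42 to 2.60 times in Ddx41+/+ and by 2.45 to 2.70 times in Ddx41+/- samples. The oxidases of other tissues were nearly absent. Nox3, Duox1, Duox2 and Duoxa1 had 0 counts in all samples. Noxo1, an organizer of the NOX1 oxidase, was measured at 2.95 ± 0.787 CPM (SD, n = 4) and 2.34 ± 1.13 CPM (SD, n = 3), with overlap (log2 fold change -0.33, SE 0.34, edgeR BH-adjusted p = 0.788). Neither Rac1 nor Noxo1 passed DESeq2 or limma-voom.

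The genes that assemble and trigger the oxidase were counted over a list of 30, all of them tested. By edgeR 0 of 30 were called. An unadjusted p under 0.05 was found for 7, all higher in Ddx41+/- cells, where 10.6% of all genes had one. DESeq2 called 2 and limma-voom 0. The 2 were Tiam1, an exchange factor that loads Rac with GTP, and Fpr1, the receptor for bacterial formyl peptides, named here after their values were seen. Tiam1 was measured at 127 ± 9.88 CPM (SD, n = 4) and 165 ± 23.3 CPM (SD, n = 3), without overlap (log2 fold change 0.37, SE 0.089, edgeR BH-adjusted p = 0.112). Fpr1 was close to absent, with at most 43 counts in any sample. The most abundant genes of the list per kilobase were Arhgdib and Arhgdia, which hold Rac GTPases inactive in the cytosol, and the kinase Akt1, with log2 fold changes of 0.03 (SE 0.068), 0.00 (SE 0.057) and -0.11 (SE 0.069). The median log2 fold change of the list was 0.05 beside 0.00 for all genes.

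Of 23 transcription factors known or proposed to act on oxidase genes, 0 were called by edgeR and 0 by limma-voom. DESeq2 called 1, Hoxa10, which was named after its values were seen. An unadjusted p under 0.05 was found for 4 of the 23 factors, 1 higher and 3 lower in Ddx41+/- cells. Among all genes tested, 10.6% had one. Spi1 (PU.1), the main activator of Cybb in myeloid cells, was measured at 177 ± 12.8 CPM (SD, n = 4) and 183 ± 9.49 CPM (SD, n = 3), with a log2 fold change of 0.05 (SE 0.068, edgeR BH-adjusted p = 0.837). Irf8, which acts with PU.1, had a log2 fold change of 0.06 (SE 0.079), and Cebpa, a driver of granulocyte fate, of -0.07 (SE 0.073). Hoxa10, a homeobox factor of early progenitors, stood at 12.3 ± 2.37 CPM (SD, n = 4) and 7.22 ± 1.34 CPM (SD, n = 3), without overlap (log2 fold change -0.77, edgeR BH-adjusted p = 0.108). The Spi1, Irf8 and Cebpa ranges all overlapped between the genotypes.

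Upstream and downstream of the enzyme, 1 gene was called by edgeR. NADPH, the electron donor, is made by the pentose phosphate pathway and a few dehydrogenases, and of 13 such genes tested 1 was called, a gene that fell. An unadjusted p under 0.05 was found for 5 of the 13, 4 of them higher in Ddx41+/- cells, where 10.6% of all genes had one. The 4 were G6pdx and Pgd, the NADPH-making dehydrogenases of the pentose phosphate pathway, Rpe of the same pathway, and Idh1, with log2 fold changes of 0.14 (SE 0.064), 0.16 (SE 0.061), 0.21 (SE 0.081) and 0.20 (SE 0.082), and they were named after their values were seen. None of these 4 had a BH-adjusted p under 0.05 by edgeR, DESeq2 or limma-voom. The called gene was Nnt, the transhydrogenase of the inner mitochondrial membrane, at 131 ± 4.49 CPM (SD, n = 4) across Ddx41+/+ mice and 69.2 ± 4.88 CPM (SD, n = 3) across Ddx41+/- mice (log2 fold change -0.92, edgeR BH-adjusted p = 6.65e-06). DESeq2 and limma-voom called the same single gene. Which mouse strain the Nnt alleles of each sample came from was not examined, and a part of strain in this difference was not tested. The most abundant of these genes per kilobase, Tkt, Taldo1 and Idh2, had log2 fold changes of 0.08 (SE 0.056), 0.06 (SE 0.060) and 0.01 (SE 0.057). Among 19 tested genes that remove superoxide and peroxide or use it, 0 were called by edgeR, DESeq2 or limma-voom. An unadjusted p under 0.05 was found for 2 of these 19, beside 10.6% of all genes. Mpo, the myeloperoxidase that turns hydrogen peroxide into hypochlorous acid in neutrophils, was the most abundant, at 14300 ± 1027 and 16390 ± 778 CPM, without overlap (log2 fold change 0.20, SE 0.068, edgeR BH-adjusted p = 0.314). Gpx1 (glutathione peroxidase) and Txn1 (thioredoxin) followed, with log2 fold changes of 0.05 (SE 0.057) and -0.11 (SE 0.073).

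**Figure D3:**
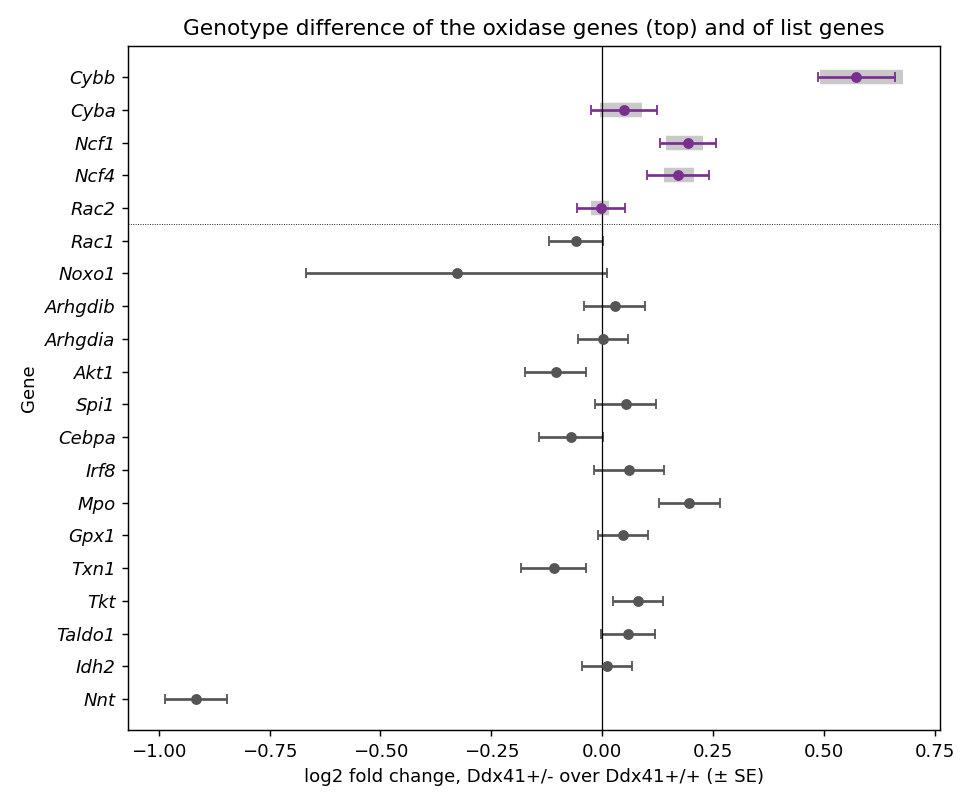
Fitted log2 fold change of Ddx41+/- over Ddx41+/+ (horizontal axis, ± SE) for the 5 oxidase genes (top, purple) and for genes of the other lists (grey). Grey bands give the range of the oxidase genes when each sample was left out in turn, from 0.49 to 0.68 for Cybb. Of the list genes plotted, Nnt, at -0.92, was the only one called.

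Cybb is transcribed far more in maturing phagocytes than in stem cells, so markers of those cells were summed in each sample. In bulk RNA, more cells of a type and more RNA per cell cannot be told apart. The 13 matched markers of mature neutrophils summed to 813, 999, 1368 and 1188 CPM in Ddx41+/+ and to 2491, 1697 and 1451 CPM in Ddx41+/- samples. Of these markers 12 had the higher mean in Ddx41+/- and 1, Mmp9, was called, while S100a9 was the most abundant. The sums of the 14 markers of monocytes and macrophages were 1601 to 1956 CPM and 1872 to 2575 CPM, with 13 of 14 higher in Ddx41+/- and 0 called, and the highest was F13a1. The sums of the 10 markers of granulocyte-monocyte progenitors, led by Mpo, were 19670 to 23640 CPM and 24450 to 25900 CPM, with 10 of 10 higher and 0 called. Mpo alone averaged 15200 CPM over all samples and so made up most of these sums. Mpo and Elane did not overlap between the genotypes, and the other markers of this list did. Of all genes tested, 48.8% had a positive log2 fold change. The neutrophil and progenitor sums thus separated the genotypes in the same direction as Cybb, Ncf1 and Ncf4. Among samples, the neutrophil sum was highest in replicate 6 and the monocyte and progenitor sums in replicate 7. The sums of B-lineage markers and of eosinophil, basophil and mast cell markers were highest in replicate 7 too. Cybb and Ncf1 were highest in replicate 7, whereas Ncf4 was there at its lowest of the Ddx41+/- samples (91.2 CPM). The part of these cells in the difference of Cybb was not tested.

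The other marker lists did not share 1 direction. The LSK markers, led by Cd34, summed to 1700 to 1901 CPM in Ddx41+/+ and 1582 to 1730 CPM in Ddx41+/- samples, with 1 of 10 higher in Ddx41+/-. Markers of dendritic cells, led by Flt3, summed to 524 to 590 CPM and 419 to 501 CPM. These sums separated the genotypes with Ddx41+/- lower, and 1 of the 9 tested markers was higher there. Those of eosinophils, basophils and mast cells, led by Prg2, overlapped at 331 to 473 CPM and 400 to 562 CPM. The mean sum was higher in Ddx41+/- (429 and 502 CPM), with 5 of 10 markers higher. B-lineage markers, led by Jchain, overlapped at 95.0 to 192 CPM and 98.1 to 424 CPM, the highest being replicate 7. Of these, 9 of 9 had the higher mean in Ddx41+/- and 0 were called. Markers of late erythroid cells, led by Slc4a1, had means of 58.9 and 69.7 CPM and overlapped, with 4 of 5 tested markers higher in Ddx41+/-. The globin genes Hba-a1, Hba-a2, Hbb-bs and Hbb-bt had 0 counts in all samples.

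**Figure D4:**
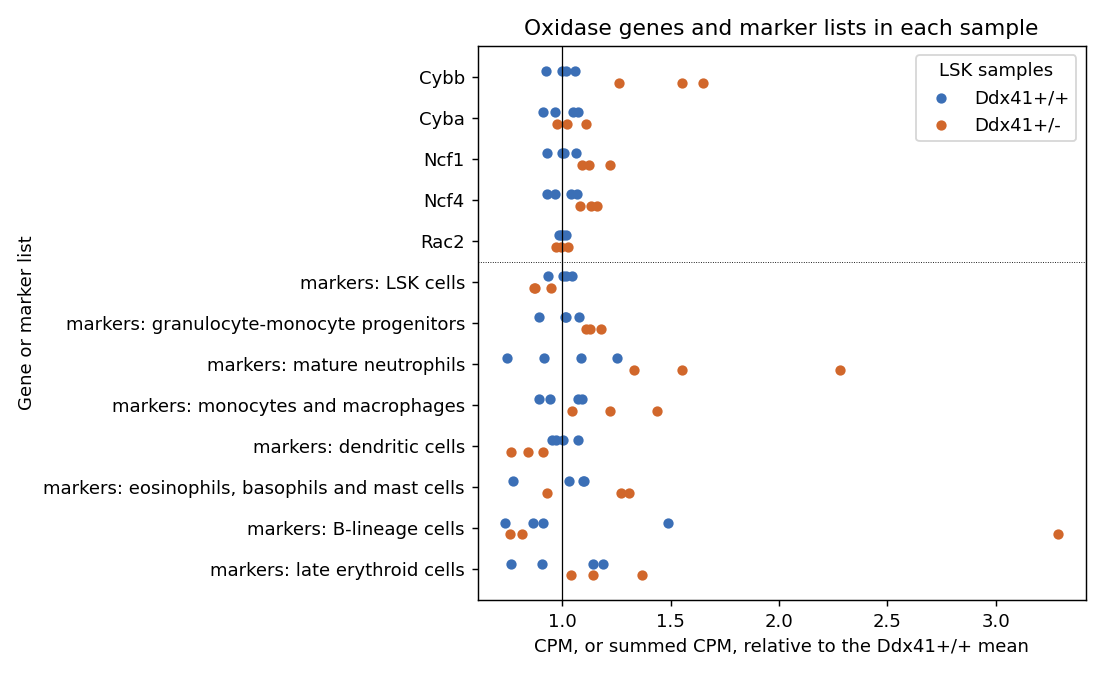
CPM of the 5 oxidase genes (top) and summed CPM of 8 marker lists, each divided by the mean of the 4 Ddx41+/+ samples, with 1 point per mouse (Ddx41+/+ blue, Ddx41+/- orange). Mature neutrophil markers reached 1.33 to 2.28 times that mean in Ddx41+/- samples, and Cybb 1.26 to 1.65 times.

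Variation between mice of the same genotype was compared after subtracting each genotype's mean of log2 CPM. Cybb then lay lowest in replicate 8 (-0.23) and replicate 1 (-0.11) and highest in replicate 7 (0.16). Replicate 1 also lay low for Cyba (-0.13), Ncf1 (-0.10) and Ncf4 (-0.10), whereas Rac2 stayed near its mean there (-0.01). Over the 7 samples, Cyba and Ncf4 varied most alike (r = 0.93, rho = 0.89), and among 9105 other genes with at least 10 CPM, Ncf4 ranked 16th in likeness to Cyba. Cybb was less like its partners, with r = 0.64 to Rac2, 0.60 to Ncf1, 0.16 to Cyba and 0.04 to Ncf4. Rac2, the closest of them, ranked 1286th of the 9105 genes.

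The genes most like Cybb in this measure were Ly6e (r = 0.99, rho = 1.0), Fam102b (0.99, 1.0), Rpl7a (0.99, 1.0), Golga7 (0.99, 0.96) and Capg (0.99, 1.0). Without replicates 8 and 1, which lay farthest from the median, r remained between 0.93 and 0.96. None of these 5 differed between the genotypes as Cybb did, with log2 fold changes from -0.12 to 0.07. For the other members, the closest genes were D5Ertd605e and BC029214 for Cyba, P4ha1 and Cops2 for Ncf1, Rmi1 and Ap2s1 for Ncf4, and Nsdhl and Ranbp6 for Rac2, with r between 0.96 and 1.00. These values rest on 7 points each, which share their libraries and depth, and were the highest of 9106 genes.

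Cybb is X-linked, so the sex pattern of the libraries was checked. Kdm5d, Eif2s3y, Uty and Ddx3y on the Y chromosome had 0 counts in every sample, and Xist had at least 21113 counts in every sample. The libraries of both genotypes therefore had the same pattern of sex-linked transcripts.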

How the data were processed

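LSK cells of 7 transplanted mice were profiled by RNA-seq. The values that the authors deposited are raw counts, not scaled, with 1 row per gene symbol. All columns were used (0 unused). The submitters' processing notes name FastQC 0.11.7, HISAT2 2.0.5, featureCounts 1.5.2 and the build mm10. The labels give a stranded mRNA library kit and the study's methods another kit, and use of strand in counting is not stated. The counts as deposited carry a name saying that Ddx41+/- library 5 had been removed, and it was not analysed here.

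Groups followed the genotype labels, 4 against 3 samples. Genotypes were compared with edgeR 4.0.16 in R 4.3.3 (robust quasi-likelihood fit, TMM scaling, filterByExpr, 13340 genes, BH adjustment over all of them, threshold 0.05). The SE is the absolute log2 fold change over the root of F. The method was tested on simulated data. Log2 CPM used a prior count of 2. Exon lengths and positions came from GENCODE M21, the promoters from RefSeq (3 of 5 genes matched). Alternatives were DESeq2 1.42.0, limma-voom (limma 3.58.1), other scalings, no expression filter, a non-robust fit, an adjusted p under 0.1 and leaving out each sample. Of 187 list symbols 4 (Cybc1, Ly6g, Ighm, Ahsp) were unmatched. Named were the oxidase genes, Ddx41, and per pathway list the called genes, the 3 highest per kilobase and those at 0 counts. For likeness, 5 genes were named for Cybb and 2 for each other member, and for marker lists the highest gene and those at 0 counts. A listed gene is not reported here. Members and lists were chosen with earlier results of these data known.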

Additional observations from a re-analysis of the deposited data

How the results depend on the processing

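The number of genes called between the genotypes depended on the method more than the fold changes of the oxidase genes did. Against 29 calls, there were 15 with library totals only, 91 without an expression filter, 156 by DESeq2, 10 by limma-voom, 14 with the non-robust dispersion, 74 at an adjusted p under 0.1, and 7 to 41 when each sample was left out. Of the 5 oxidase genes 1 was called under each of the other settings, and 0 or 1 when a sample was left out. For assembly and signalling genes, against 0 calls, there was 1 without an expression filter (Tiam1), 2 by DESeq2, and 0 to 2 with a sample left out, where Tiam1 and Prkcb were called without Ddx41+/- replicate 6. Of the transcription factors, 1 was called without an expression filter and 1 by DESeq2, Hoxa10 in both. Nnt was called under every setting.

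The log2 fold change of Cybb lay between 0.49 and 0.68 with a sample left out and between 0.56 and 0.58 under the other methods. Ncf1 ranged from 0.14 to 0.23 and Ncf4 from 0.14 to 0.21 over all settings, and Cyba (-0.01 to 0.09) and Rac2 (-0.03 to 0.02) had no fixed sign. Without centring on the genotype means, 0 of the 5 genes named as most like Cybb remained among its 5 closest. The order of the members per kilobase, checked by longest transcript length after the data were seen, held in 7 of 7 samples. Each oxidase gene had at least 2209 counts in every sample, so the number of mice limits these values more than the depth. No paired analysis was possible because the genotypes share no replicate number.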
